A study of Mus musculus with 8 samples.

Results

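This is an account of 10 genes of the transforming growth factor beta (TGF-beta) pathway in primary mouse microglia: the ligand Tgfb1, the receptors Tgfbr1 and Tgfbr2, the signal transducers Smad2, Smad3 and Smad4, the inhibitory Smad7, and the corepressors Ski, Skil and Tgif1. The genes were chosen by symbol, through the RefSeq accession that the array files give for each probe. They are 10 of 19120 genes tested, measured by 15 probes, of which 14 were kept. All 10 genes were well above background on all 8 arrays, so none entered through a single condition. Microglia, the resident macrophages of the brain, were prepared from C57BL/6 mice and exposed for 3 h to Fc-fused Ecrg4(71-132), to Fc-fused Ecrg4(133-148), to Fc or to PBS. Fc, the constant part of an antibody, and both Fc fusions were given at 20 µg/ml. The fusions carry residues 71 to 132 and residues 133 to 148 of Ecrg4, a secreted protein precursor that is cut into peptides. Each treatment has 2 arrays, numbered as set 2 and set 1 in the labels, and each set holds 1 array of each treatment.

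TGF-beta binds the type II receptor Tgfbr2, which recruits and phosphorylates the type I receptor Tgfbr1. Active Tgfbr1 phosphorylates Smad2 and Smad3, which enter the nucleus with the common partner Smad4, while Smad7 blocks the receptor and Ski, Skil and Tgif1 hold SMAD target genes down. In the brain this pathway is needed for microglia to keep the genes that set them apart from other macrophages, such as P2ry12, Tmem119 and Cx3cr1.

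All values are log2 of the spot intensity minus the 75th percentile of the array, so that 0 is that percentile and 1 unit is a doubling. A level of one gene is never set against that of another, because probes differ in brightness. A gene was called changed at a limma p-value under 0.05 after Benjamini-Hochberg adjustment over all 19120 genes. Whether the sets were different cultures or animals is not stated, and the p-values therefore reflect only the scatter among these 8 samples, which may be technical. The number of arrays, 8 in all, limits the precision. In RNA of a whole culture, fewer cells of a type and less RNA per cell cannot be told apart. All 8 arrays lay on 1 slide and were scanned together, set 2 in one row of positions and set 1 in the other, so that the set and the row cannot be told apart.

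The promoters of 3 members are shown because the results turn on them: Tgfbr2 and Smad3, with the largest differences between sets in opposite directions, and Tgif1, a member whose Ecrg4(71-132) array was the highest in both sets. They are RefSeq windows of 300 bases on GRCm38.p6, most of them upstream of the annotated start. Of the 10 members, 6 have a promoter in the part of the table used here. Capitals mark matches on either strand to CAGAC, the core of a SMAD-binding element, to GGCGC, a GC-rich SMAD site, to TGACTCA, an AP-1 site or to GAGGAA, the core bound by the myeloid factor PU.1. Tgfbr2 lies at chr9:116175314-116175613 on the minus strand, Smad3 at chr9:63757945-63758244 on the minus strand, and the most upstream of 5 listed Tgif1 starts at chr17:70853483-70853782 on the minus strand.
Tgfbr2: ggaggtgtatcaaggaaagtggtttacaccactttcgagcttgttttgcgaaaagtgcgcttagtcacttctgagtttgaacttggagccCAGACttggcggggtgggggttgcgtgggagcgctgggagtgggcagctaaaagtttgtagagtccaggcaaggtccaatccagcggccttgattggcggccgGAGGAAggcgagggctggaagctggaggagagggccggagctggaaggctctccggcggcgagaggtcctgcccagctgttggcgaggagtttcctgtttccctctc
Smad3: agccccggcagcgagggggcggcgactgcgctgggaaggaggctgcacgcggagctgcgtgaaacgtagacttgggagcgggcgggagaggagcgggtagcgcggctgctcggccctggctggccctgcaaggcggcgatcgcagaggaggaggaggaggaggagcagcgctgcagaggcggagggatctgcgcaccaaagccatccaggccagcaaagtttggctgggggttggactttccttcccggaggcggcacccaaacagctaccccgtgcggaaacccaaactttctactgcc
Tgif1: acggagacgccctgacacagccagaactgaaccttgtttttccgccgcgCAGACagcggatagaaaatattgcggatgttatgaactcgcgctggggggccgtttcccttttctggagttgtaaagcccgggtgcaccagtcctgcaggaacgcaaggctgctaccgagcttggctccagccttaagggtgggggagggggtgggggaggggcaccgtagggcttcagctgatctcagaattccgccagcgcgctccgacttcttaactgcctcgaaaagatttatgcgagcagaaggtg

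The Tgfbr2 window holds 1 CAGAC and 1 GAGGAA, the Tgif1 window shown holds 1 CAGAC, and the Smad3 window holds none of the 4 motifs. The other Tgif1 windows, not shown, hold 0 to 2 CAGAC, 0 to 2 GGCGC and 0 or 1 GAGGAA. Of 32841 mouse promoter windows of this length, 49.6% hold CAGAC, 36.9% GGCGC, 28.3% GAGGAA and 5.2% TGACTCA. A match describes the letters alone and is not evidence of binding.

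The labelled cell type was checked against marker genes. All 11 microglial markers were measured, and their summed linear signal, in multiples of the array's 75th percentile, was 850 to 962 on the arrays of set 2 and 802 to 866 on those of set 1. The sets were not alike within that list: 5 markers were higher in set 2 and 5 lower. Cx3cr1, the fractalkine receptor, averaged -1.95 in set 2 and 4.68 in set 1, and Tmem119 was well above background on 1 of 4 set 2 arrays and on 4 of 4 set 1 arrays. Of 8 fibroblast and pericyte markers 4 were measured, with sums of 0.421 to 0.573 in set 2 and 21.8 to 47.0 in set 1. Those of 7 measured astrocyte markers, of 9, were 72.4 to 76.8 in set 2 and 29.6 to 42.7 in set 1. Those of 6 oligodendrocyte lineage markers, of 9, were 91.2 to 110 in set 2 and 35.9 to 38.6 in set 1. A linear sum is led by its brightest genes. Of the astrocyte markers, 2 were called higher in set 2, Aldoc and Aldh1l1, with set 2 means of 5.93 and 3.73. The other 5 were called lower, with set 2 means of -5.45 (Gfap) to -3.76 (S100b). Of the oligodendrocyte lineage markers, 3 were called higher in set 2 and 2 lower. Few markers of other cells were measured, that is, had a kept probe: 1 of 8 for neurons, 3 of 6 for endothelium, 3 of 7 for neutrophils and monocytes, and 2 of 7 for lymphocytes. A probe was kept if well above background on both arrays of some treatment, 1 from each set. A marker seen in 1 set alone therefore counts as not measured. For neurons 7 markers, and for endothelium 3, had probes on the array that were not kept. Arrays correlated at 0.975 to 0.990 within set 2 and 0.994 to 0.997 within set 1, against 0.954 to 0.962 between the duplicates of a treatment.

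The comparison of set 2 with set 1, made within treatments, is taken first because it held the largest differences. The receptors and Smad2 were higher in set 2, Smad3 was about 10-fold lower, and Smad4, Smad7, Ski and Skil did not pass the test. Of the 10 members, 5 rose (Tgfb1, Tgfbr1, Tgfbr2, Smad2 and Tgif1) and 1 fell (Smad3). This is close to the whole array, where 59.3% of 19120 genes were called, 36.4% higher in set 2 and 22.8% lower. The median difference was 0.31 over the members and 0.11 over all genes.

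Tgfb1, the ligand that microglia themselves secrete, had levels of 4.24, 3.89, 3.63 and 3.57 in set 2 for Ecrg4(71-132), Ecrg4(133-148), Fc and PBS, against 3.50, 3.46, 3.41 and 3.27 in set 1 for the same treatments. All 4 arrays of set 2 lay above all 4 of set 1, but the gap between the nearest arrays was small. The difference was 0.42 ± 0.10 (SE, limma adjusted p = 0.0214). Without either Ecrg4(133-148) array the difference was 0.42 (limma adjusted p = 0.0747), and without either PBS array 0.46 (limma adjusted p = 0.0517), neither past the threshold. The Tgfb1 probe has 10 spots per array. On the PBS array of set 1 the scanner software marked 1 of them as outlying, at an intensity of 186402 beside 7207 to 7619 for the others. It was left out; the mean over all 10 spots would have put that array at 5.04 in place of 3.27.

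Tgfbr2, the receptor that binds the ligand, stood at 4.93, 5.55, 5.87 and 5.87 in set 2 for Ecrg4(71-132), Ecrg4(133-148), Fc and PBS, against 3.80, 4.11, 4.26 and 4.22 in set 1. The groups did not overlap, and the order of the treatments was nearly the same in each set. The difference of 1.46 ± 0.10 (SE, limma adjusted p = 0.000596), with a 95% interval of 1.19 to 1.73, is a 2.75-fold higher signal in set 2. The other Tgfbr2 probe, a dimmer one, differed by 1.33.

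Tgfbr1, the kinase that phosphorylates Smad2 and Smad3, stood at 3.44, 3.22, 3.26 and 3.38 in set 2 for the treatments in the same order, against 2.27, 2.44, 2.42 and 2.44 in set 1. The sets did not overlap, and the spread among the treatments was small beside the gap. The difference was 0.93 ± 0.08 (SE, limma adjusted p = 0.00105), and 1.17 on the gene's other probe. With the levels of Tgfbr2, both parts of the receptor complex were higher in set 2.

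Smad2 and Smad3, the receptor-regulated SMADs, moved in opposite directions. Smad2 had levels of 1.96, 1.59, 1.51 and 1.47 in set 2, against 1.12, 1.16, 1.01 and 0.90 in set 1, a difference of 0.59 ± 0.08 (SE, limma adjusted p = 0.00432) with no overlap. Smad3 had levels of -2.92, -2.21, -2.15 and -2.11 in set 2, against 0.93, 0.97, 0.78 and 1.26 in set 1. No Smad3 value of one set came near the other, and the lowest was the Ecrg4(71-132) array of set 2. The Smad3 difference was -3.34 ± 0.16 (SE, limma adjusted p = 0.000241), with a 95% interval of -3.76 to -2.91, a 10.1-fold lower signal in set 2. It ranked 199 by size of 19120 genes and 151 among those lower in set 2. The change in Smad2 exceeded that in Smad3 by 3.92 within the same arrays.

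The Smad3 value rests on 1 probe, because its other probe was not well above background on any array, at -6.64 to -5.27. The fibroblast and pericyte markers moved with it: all 4 measured (Col1a1, Col1a2, Dcn and Fap) were lower in set 2, with differences of -6.71 to -1.50. In set 2, Col1a1 was well above background on 1 of 4 arrays and Dcn and Fap on 2 of 4 each. Within set 1 the sums of these markers were 30.6, 21.8, 29.0 and 47.0 for Ecrg4(71-132), Ecrg4(133-148), Fc and PBS. Smad3 had 0.93, 0.97, 0.78 and 1.26 on the same arrays. The PBS array was the highest for both, and the order of the other arrays differed. Astrocyte markers differed as well, 2 of the 7 measured being higher in set 2 and 5 lower, with Gfap, well above background on 1 of 4 set 2 arrays, at -7.02. The part of these cell types in the Smad3 difference was not tested.

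**Figure D1:**
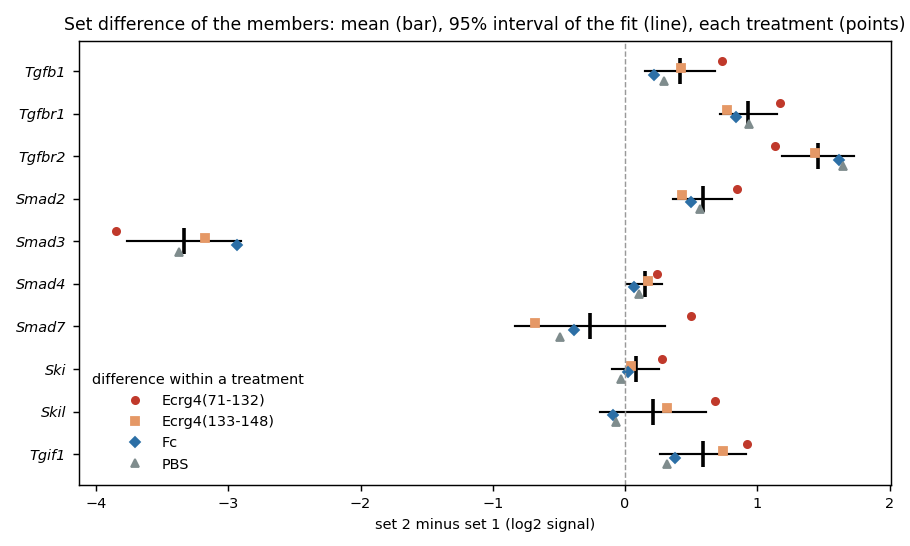
Difference between set 2 and set 1 for the 10 genes, in log2 signal on the horizontal axis, with genes down the vertical axis. The vertical tick is the mean over treatments, the line its 95% interval from limma, and the points the differences within each treatment; Smad3 lies at -3.34, Tgfbr2 at 1.46, and the intervals of Smad7, Ski and Skil cross 0.

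Smad4, the common SMAD, showed the sets apart but barely so. Its levels were 3.29, 3.21, 3.17 and 3.17 in set 2, against 3.05, 3.04, 3.11 and 3.06 in set 1, a difference of 0.15 ± 0.05 (SE, limma adjusted p = 0.0586). All set 2 arrays were above all set 1 arrays, yet the other Smad4 probe differed by -0.13, so the probes disagree in sign. With Smad4, 5 members had all 4 arrays of set 2 above set 1 (Tgfb1, Tgfbr1, Tgfbr2, Smad2 and Smad4), as did 34.2% of all genes, and 1 had them below (Smad3), as did 21.3%.

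Smad7, which is itself induced by TGF-beta and shuts the receptor down, had levels of -0.51, -1.21, -1.03 and -0.85 in set 2, against -1.01, -0.52, -0.65 and -0.36 in set 1. The sets overlapped, with Ecrg4(71-132) the highest array of set 2 and the lowest of set 1. The difference of -0.26 ± 0.22 did not pass (SE, limma adjusted p = 0.337).

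Among the corepressors, Tgif1, a homeodomain protein that recruits histone deacetylases to SMADs, was 0.59 ± 0.12 higher in set 2 (SE, limma adjusted p = 0.0139). Its levels were 5.30, 4.80, 4.52 and 4.29 in set 2, against 4.38, 4.07, 4.14 and 3.97 in set 1, and the sets overlapped at 1 array each, the set 2 PBS array and the set 1 Ecrg4(71-132) array. Without either Ecrg4(133-148) array, the Tgif1 difference was 0.54 (limma adjusted p = 0.0582), beside 0.59 with all arrays. Skil, also known as SnoN, had 3.33, 2.70, 2.44 and 2.23 in set 2, against 2.64, 2.39, 2.53 and 2.30 in set 1. Only its fragment-treated pairs were higher in set 2, and the mean difference of 0.21 ± 0.15 did not pass (SE, limma adjusted p = 0.287). Ski had -2.88, -3.03, -2.73 and -2.74 in set 2, against -3.16, -3.07, -2.75 and -2.71 in set 1, a difference of 0.08 ± 0.07 (SE, limma adjusted p = 0.361). The Ski sets overlapped.

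**Figure D2:**
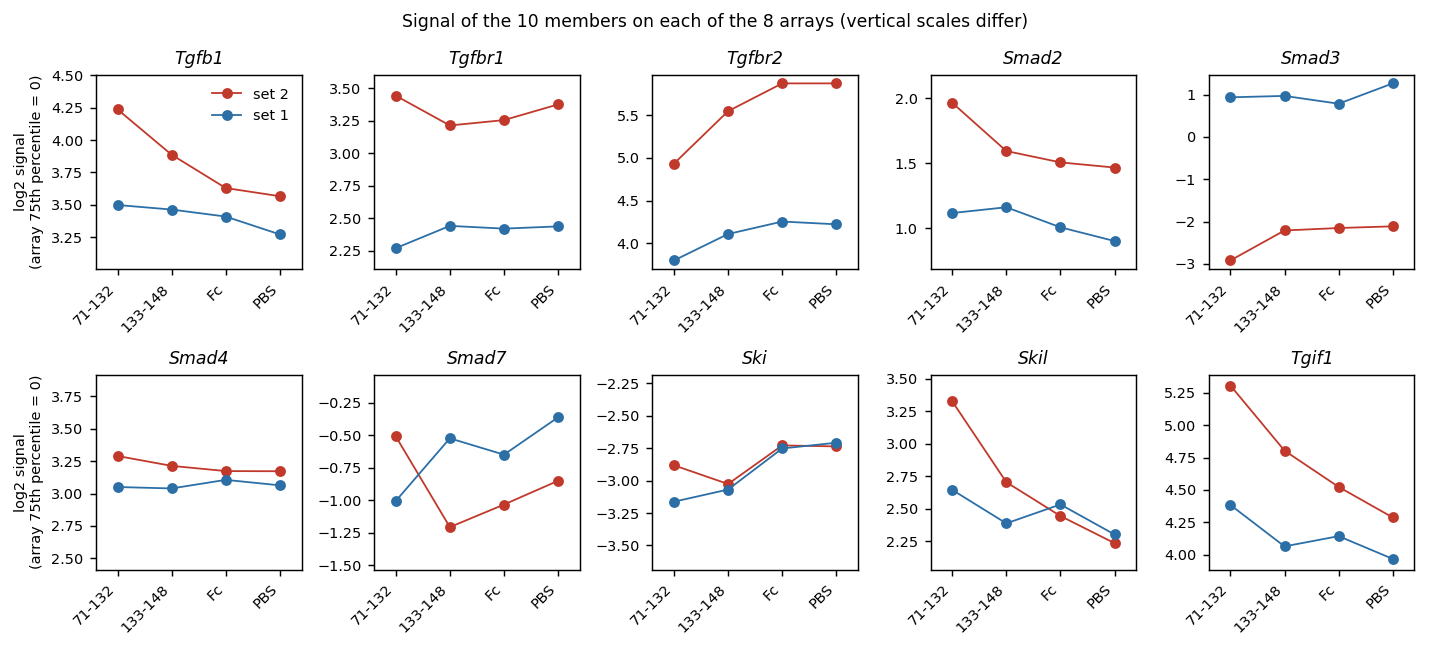
Log2 signal (array 75th percentile at 0) of each of the 10 genes on the 8 arrays, with treatments on the horizontal axis, 1 line per set, and vertical scales that differ between panels. Tgfbr2 is lowest and Tgif1 highest with Ecrg4(71-132) in both sets, and the Smad3 lines lie more than 2.9 apart at every treatment.

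The question the treatments address is what the Ecrg4 fragments do to microglia, with Fc as the control for the fusion part. For Ecrg4(71-132) against Fc, no member was called, and none of 19120 genes was (0%) by limma; 644 genes had an unadjusted p under 0.05, with none of the members among them. With set as a replicate block it was 3559 genes and 3 of 10 members (Tgfbr2, Ski and Tgif1). The members with the same sign in both sets were Tgfb1, Smad2, Skil and Tgif1, higher with the fragment, and Tgfbr2 and Ski, lower. That is 4 of 10 higher and 2 of 10 lower, beside 28.5% and 36.4% of all genes.

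Tgfbr2 had the lowest mean difference of the 10. Ecrg4(71-132) against Fc differed by -0.94 in set 2 and by -0.46 in set 1, a mean of -0.70 ± 0.91 (SE, limma adjusted p = 1). The standard error holds the difference between the sets, which exceeds the treatment difference. With set as a replicate block the standard error was 0.15, the 95% interval was -1.09 to -0.31, and the adjusted p was 0.207 in limma. With the block and any 1 array left out, the Tgfbr2 difference ran over -0.92 to -0.48. The other Tgfbr2 probe gave -0.86 in set 2 and -0.39 in set 1. Averaged over sets, the Tgfbr2 level was 4.37 ± 0.80 with Ecrg4(71-132), 4.83 ± 1.02 with Ecrg4(133-148), 5.06 ± 1.14 with Fc and 5.05 ± 1.17 with PBS (SD, n = 2 each). These SDs hold the difference between the sets. Within each set Ecrg4(71-132) lay below Ecrg4(133-148), by 0.61 in set 2 and 0.31 in set 1, and Ecrg4(133-148) below Fc, by 0.33 and 0.15, while Fc and PBS differed by 0.03 at most.

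Tgif1 and Skil had the highest differences for the same fragment. Tgif1 was 0.78 above Fc in set 2 and 0.24 above it in set 1, with a mean of 0.51 ± 0.41 (SE, limma adjusted p = 1). Skil was 0.88 above Fc in set 2 and 0.11 above it in set 1, with a mean of 0.50 ± 0.26 (SE, limma adjusted p = 1). Both genes had their highest level of each set on the Ecrg4(71-132) array. The other Skil probe gave 1.18 in set 2 and 0.35 in set 1. Blocking on set left the adjusted p at 0.247 for Tgif1 and 0.299 for Skil.

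Tgfb1 was 0.61 above Fc in set 2 and 0.09 above it in set 1, and Smad2 was 0.46 and 0.11 above it. The means were 0.35 ± 0.30 for Tgfb1 and 0.28 ± 0.39 for Smad2 (SE, limma adjusted p = 1 for each). Blocking on set gave standard errors of 0.14 for Tgfb1 and 0.12 for Smad2, with limma adjusted p of 0.285 and 0.29. With set as a replicate block and without the Ecrg4(71-132) array of set 2, the differences were 0.14 for Tgfb1 and 0.11 for Smad2. Ski was lower by 0.15 in set 2 and by 0.41 in set 1, a mean of -0.28 ± 0.14 (SE, limma adjusted p = 1). Its standard error was 0.097 with the block, and the limma adjusted p 0.248. The remaining members had opposite signs in the sets: Smad3 differed by -0.77 in set 2 and 0.15 in set 1, Smad7 by 0.53 and -0.36, Tgfbr1 by 0.19 and -0.15, and Smad4 by 0.12 and -0.06. No common direction can be given for these 4.

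In set 2, the Ecrg4(71-132) array was the highest or lowest of the 4 for 9 of 10 members (7 highest, 2 lowest). Of all 19120 genes 74.2% had that place (6459 highest, 7719 lowest). In set 1 it was so for 7 of 10 members (3 highest, 4 lowest), beside 57.7% of all genes (5071 highest, 5965 lowest). The median absolute difference from Fc was 0.57 over the members and 0.21 over all genes in set 2, and 0.15 over the members and 0.13 over all genes in set 1. The difference between sets in the response to the fragments was tested as an interaction. None of 19120 genes was called (0%) by limma, 1478 had an unadjusted p under 0.05, and the members' adjusted p ran over 0.589 to 0.818.

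**Figure D3:**
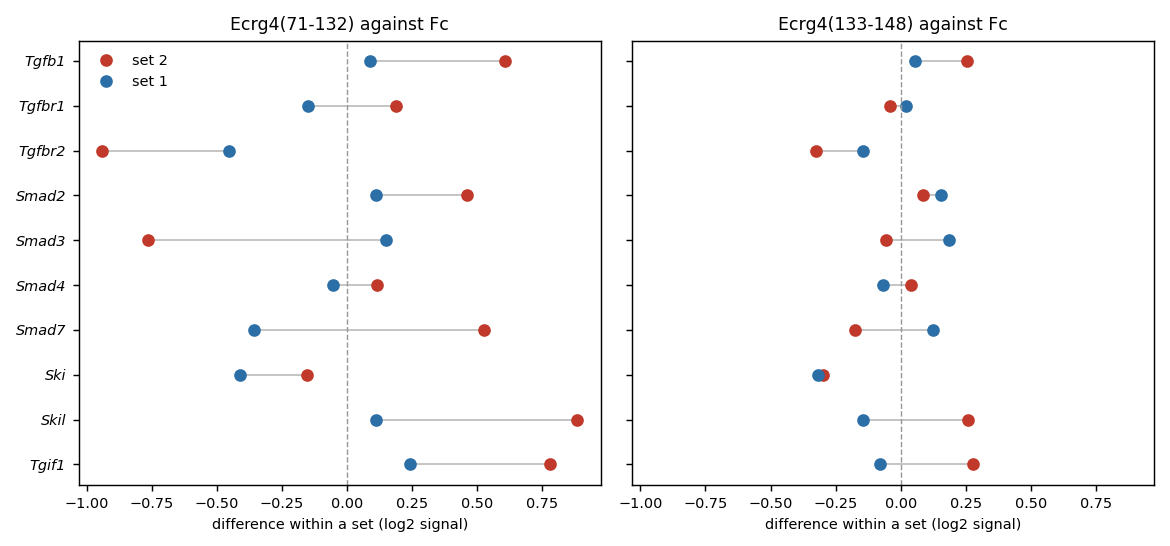
Difference of each Ecrg4 fragment from Fc within set 2 and within set 1, in log2 signal on the horizontal axis, for the 10 genes; the line joins the sets of a gene. With Ecrg4(71-132), Tgfbr2 lies at -0.94 and -0.46 and Tgif1 at 0.78 and 0.24; with Ecrg4(133-148), no gene is further than 0.33 from 0.

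For Ecrg4(133-148) against Fc, the same Fc arrays serve as the control. No member and no gene was called (0%) by limma, with 88 genes at an unadjusted p under 0.05. With set as a replicate block it was 1006 genes and 1 of 10 members (Ski), again with no gene called. The members ran over -0.31 to 0.16, and the lowest was Ski, at -0.30 in set 2 and -0.32 in set 1 (mean -0.31 ± 0.14, SE, limma adjusted p = 1). Tgfb1 and Smad2 were higher in both sets, beside 28.5% of all genes, and Tgfbr2 and Ski lower in both, beside 30.6%. Tgfbr2 differed by -0.33 in set 2 and -0.15 in set 1. The median absolute difference was 0.21 over the members and 0.12 over all genes in set 2, and 0.14 and 0.10 in set 1.

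The fragments were also compared with each other. Ecrg4(133-148) against Ecrg4(71-132) gave no called member and no called gene (0%) by limma, and 141 genes at an unadjusted p under 0.05. With set as a replicate block it was 1210 genes and 1 of 10 members (Tgfbr2), again with no gene called. Between the fragments Tgfbr2 differed by 0.46 (95% interval -1.82 to 2.74, or 0.08 to 0.85 with set as a replicate block). Skil differed by -0.44 (-1.09 to 0.21, or -1.01 to 0.13 with the block). Tgif1 differed by -0.41 (-1.43 to 0.61, or -0.87 to 0.05 with the block). With the block, the limma adjusted p was 0.714 for Tgfbr2, for Skil and for Tgif1. The missed threshold does not show that the fragments act alike on these genes. In both sets 2 members were higher and 4 lower with Ecrg4(133-148), beside 33.5% and 23.7% of all genes.

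Comparisons with PBS share arrays with those above. Fc against PBS, which shows the background of the carrier, left all members between -0.26 (Smad3) and 0.22 (Skil). No gene was called (0%) by limma, with 51 at an unadjusted p under 0.05. With set as a replicate block it was 355 genes and 0 of 10 members, again with no gene called. Against PBS, 6 of 10 members were higher with Fc in both sets and 3 lower, beside 7578 and 3196 of 19120 genes. Ecrg4(71-132) against PBS gave 0 called genes (0%) by limma, 933 at an unadjusted p under 0.05, and 1 member among them, Skil, at 0.72 (adjusted p = 0.987). With the block it was 4531 genes and 6 of 10 members, again with no gene called (smallest member adjusted p = 0.136, limma). With the block and without the Ecrg4(71-132) array of set 1, Tgfbr2 passed against PBS at -0.90 (limma adjusted p = 0.0461), where 5.64% of all genes were called, whereas without that of set 2 it was -0.46 (limma adjusted p = 0.265) with 0 genes called. In both fits the fragment rests on 1 array, which is assumed to vary like the other groups. Ecrg4(133-148) against PBS gave 0 called genes (0%) by limma and 186 at an unadjusted p under 0.05. With the block it was 1749 genes and 1 of 10 members (Ski), again with no gene called. The mean of both fragments against the mean of Fc and PBS gave 0 called genes (0%) by limma, 884 at an unadjusted p under 0.05, and Ski among these, at -0.30 (adjusted p = 1). With the block it was 4459 genes and 5 of 10 members, with no gene called (smallest member adjusted p = 0.134, limma). In each set, both fragment arrays lay above both controls for Tgfb1 and Smad2 (2 of 10, beside 14.9% of all genes) and below both for Tgfbr2 and Ski (2 of 10, beside 12.1%).

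The surrounding pathway was described with 7 lists of genes chosen with earlier results of these data known. Each count below stands beside the 36.4% of all genes called higher in set 2, the 22.8% called lower and the all-gene median of 0.11. Only genes with a kept probe are counted, so a gene well above background in 1 set alone is left out. In the set comparison, the TGF-beta family ligand list had 3 higher and 2 lower of 8 measured (16 listed), with a median of 0.06. These values include Bmp1, 1 of the 2 lower, which is not a ligand. Inhba, the activin A subunit, was 2.45 higher in set 2, and Bmp2 0.74 higher, while Tgfb2 differed by -2.99 and was well above background on 2 of 4 set 2 arrays. Bmp1, a protease that cuts procollagens, differed by -0.65. The latency and activation list had 3 higher and 6 lower of 14 (17 listed), with a median of -0.35. Lrrc32, also known as GARP, which tethers latent TGF-beta on the cell surface, was 2.11 higher, and Fst, the activin binder follistatin, 1.33 higher. Dcn, the matrix proteoglycan decorin, well above background on 2 of 4 set 2 arrays, differed by -6.50 and Fstl1 by -2.37.

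The other receptors of the family had 5 higher and 1 lower of 8 (12 listed), with a median of 0.40. Acvrl1, a type I receptor also called ALK1, was 1.18 higher, Acvr1b, an activin receptor, 1.06 higher, and Eng, the coreceptor endoglin, well above background on 1 of 4 set 2 arrays, differed by -1.97. The other SMADs and their regulators had 6 higher and 6 lower of 17 (18 listed), with a median of 0.03. Zfyve9, also called SARA, which presents Smad2 and Smad3 to the receptor, was 1.41 higher, and the ubiquitin ligase Smurf1 1.07 higher. Pmepa1, an inhibitor of the pathway, differed by -1.50 and the inhibitory Smad6 by -0.88. Pmepa1 is also in the list of TGF-beta-induced target genes and counts as lower in both lists. The nuclear partners of SMADs had 2 higher and 2 lower of 13 (15 listed), with a median of -0.08. Among these, Crebbp, a histone acetyltransferase, was 0.70 higher, Runx1 0.45 higher, and the repressor Zeb1 differed by -2.40 and Hdac1 by -0.34.

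Among genes downstream of the pathway, more of those called were lower in set 2 than higher. Of 17 measured TGF-beta-induced target genes (18 listed), 4 were higher and 8 lower, with a median of -0.13. Bhlhe40 was 1.48 higher and Id2 0.91 higher; Tagln, a smooth muscle actin-binding protein, differed by -3.71, and Col1a1, a collagen chain that is also in the fibroblast list and was well above background on 1 of 4 set 2 arrays, by -6.71. Of 16 measured TGF-beta-dependent microglial genes (18 listed), 4 were higher and 11 lower, beside 36.4% and 22.8% of all genes, with a median of -1.26. Cx3cr1 differed by -6.62 and Olfml3 by -4.40, while Mertk, a receptor for apoptotic cells, was 1.98 higher and its ligand Pros1 1.23 higher. For both lists the median of all genes was 0.11.

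**Figure D4:**
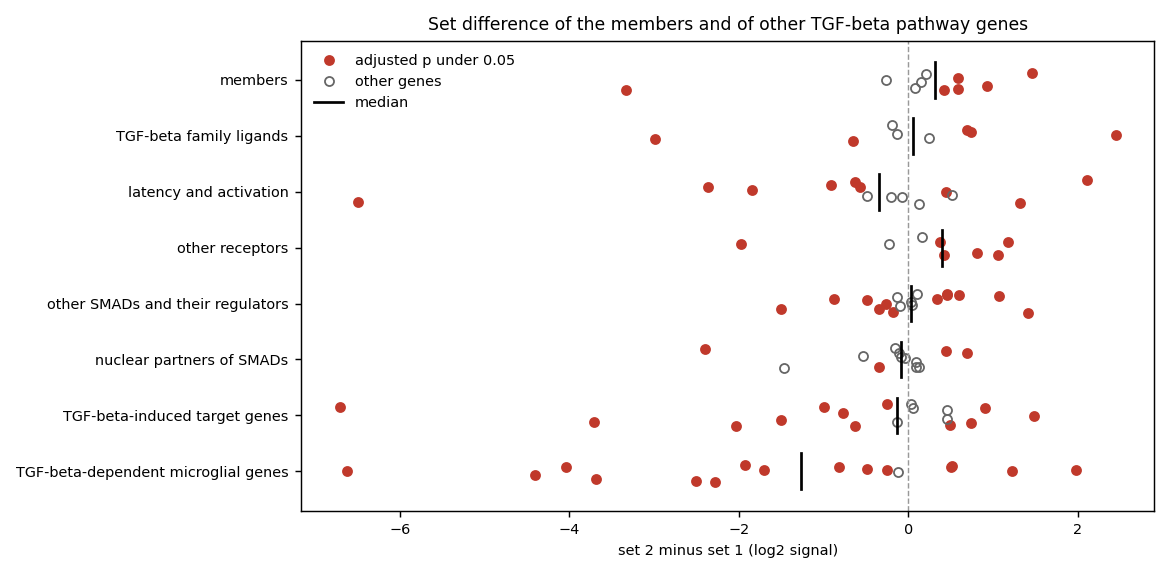
Difference between set 2 and set 1, in log2 signal on the horizontal axis, of the 10 genes and of 7 lists of other pathway genes, 1 point per gene, filled where the limma adjusted p was under 0.05, with the median as a bar. The TGF-beta-dependent microglial genes have a median of -1.26, with 11 of 16 called lower.

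For Ecrg4(71-132) against Fc, no gene of any of the 7 lists was called by limma (adjusted p = 1 for every named gene). Inhba was 3.51 higher in set 2 and 1.43 higher in set 1, and Bmp2 differed by -0.52 and -0.54. Fst was 2.13 higher in set 2 and 0.57 in set 1, whereas Fstl3 differed by -1.90 and -0.58. Itga5, the fibronectin receptor chain, was 1.67 higher in set 2 and 0.60 in set 1. Of the 17 target genes 11 were higher in both sets and 4 lower in both, beside 28.5% and 36.4% of all genes, with a median of 0.23 against -0.02 over all genes.

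Among the TGF-beta-dependent microglial genes, 9 of 16 were lower in both sets with Ecrg4(71-132) and 1 was higher in both, beside 36.4% and 28.5% of all genes, with a median of -0.11. Gpr34, a lysophosphatidylserine receptor, differed by -1.50 in set 2 and -1.02 in set 1, and Mef2c, a transcription factor, by -2.62 and -0.38, being well above background on 2 of 4 set 2 arrays. In the remaining lists, Acvr1b differed by a mean of 0.52 and Acvr2b by -0.41. Smad6 differed by -0.78 in set 2 and -0.30 in set 1, the deubiquitinase Usp9x by 0.57 and 0.15, Runx3, well above background on 1 of 4 set 2 arrays, by 0.34 and 1.67, and Fli1 by -1.47 and -0.24.

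The genes most like each member over the 8 arrays, after the set means were removed, were sought among 12596 other genes with a symbol. For Tgfb1 they were Plxnd1 (Pearson r = 0.9991) and Gpatch2, for Tgfbr2 Slc7a4 (0.9993) and Srpk2, for Smad2 Zcrb1 (0.9962) and Msantd4, for Skil Marcks (0.9962) and Cxcl16, and for Tgif1 Tnfaip2 (0.9971) and Hk2. These patterns were common: 1438 genes had r over 0.9 with Tgfb1, 1619 with Tgfbr2, 1196 with Smad2, 1062 with Skil and 1060 with Tgif1. The other members had fewer such genes. There were 20 for Tgfbr1, led by Polr2e (0.9675) and Cbfa2t2, 95 for Smad3, led by Acat3 (0.9841) and Trpt1, and 137 for Smad4, led by Cd74 (0.9838) and Fbxl19. There were 19 for Smad7, among them E130112N10Rik (0.9659), and 77 for Ski, led by Atg14 (0.9826) and Zfp113. All points share the same 8 arrays.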

How the data were processed

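RNA of 8 samples was hybridised to one-colour Agilent arrays. The authors deposited a scanner output per array, with background-subtracted spot intensity (linear) and flags for outlying and dim spots; per the submitters' processing notes the software was Agilent Feature Extraction 11.0.1.1. A second deposited table gives log2 values that equal log2 intensity less a constant for each array, by a step of the authors that the labels do not describe. Its column medians ran over -4.47 to -4.20, and it served as an alternative. No sample column was left unmapped (0).

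From the intensities, log2 signal relative to the array's 75th percentile was computed, without outlying spots and averaged over the spots of a probe. A probe was kept if both arrays of some treatment flagged it well above background (25250 of 55681), and a gene's brightest kept probe stood for the gene. Per array, 24243 to 29474 probes were well above background and no spot was saturated (0). RefSeq accessions of GRCm38.p6 named 28026 probes. The array design names mm9 per the file headers, so no coordinates come from the files.

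All arrays entered 1 fit of limma 3.58.1 (R 4.3.3) with a mean per treatment (4 residual degrees of freedom), or with a set term as well (3) for the set comparison. The code was tested on simulated data. The labels call the replicate numbers sets, and same-numbered arrays deviated from their treatment means together, with correlations of 0.783 to 0.862 across genes in every pair of treatments, so the numbers were taken as pairing the samples.

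The members and lists were chosen with earlier results of these data known. Named genes of a list are the 2 called genes with the largest set difference in each direction, and the 2 with the largest Ecrg4(71-132) difference from Fc among those of 1 sign in both sets; 2 genes picked by the rules for naming are not reported here. Alternatives were other normalization, background correction, filters, probe summaries, eBayes settings, the replicate block and leaving out each array.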

Additional observations from a re-analysis of the deposited data

Results flagged for a closer look

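Within each set, the array farthest from the other 3 was tested for each of the 10 members with Dixon's ratio of gap to range at its 95% critical value, 20 tests in all, of which chance gives about 1 in 20. The 4 arrays of a set are 4 treatments and not replicates. For Smad3, the Ecrg4(71-132) array of set 2, at -2.92, stood below the other 3 (ratio 0.879). For Tgfbr1, the Ecrg4(71-132) array of set 1, at 2.27, stood below the other 3 (ratio 0.876).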

How the results depend on the processing

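The set differences of the members kept their sign in all 17 alternatives. Leaving out either array of a treatment gave the same set fit, so those alternatives are counted in identical pairs. Tgfbr1, Tgfbr2, Smad2 and Smad3 passed in 17 of 17, with Smad3 between -3.47 and -2.72, Tgif1 in 15 and Tgfb1 in 13; Smad4 passed in 3, Smad7 in 2, Ski in 1 and Skil in 0. In the set comparison 11333 genes were called, against 18666 with no filter on dim probes, 72.8% of them higher in set 2 in place of 61.5%, where more features were tested. The all-gene median of 0.11 was 0.04 with quantile normalization.

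With set as a replicate block, the paired fit, 0 genes were called in every treatment comparison, as without it, while unadjusted p-values under 0.05 became more frequent (3559 in place of 644 for Ecrg4(71-132) against Fc). Calls appeared in that paired fit without Ecrg4(71-132) replicate 1: 482 for Ecrg4(71-132) against Fc, 1078 for it against PBS and 1022 for both fragments, where Tgfbr2 was -0.90 (limma adjusted p = 0.0461) against PBS and -0.57 (0.0448) for both fragments. The fragment then rests on 1 array, assumed to vary like the other groups, and without its replicate 2 the same paired fits called 0 genes. Without Fc replicate 1 the first count was 1, and without PBS replicate 1 the second was 3. The interaction had 0 called genes, 1 with quantile normalization or the filter on all 8 arrays, 23 with no filter, and 0 to 192 with single arrays left out. The causes were not tested.

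No treatment difference of a member was called outside the paired fits just given, and several near 0 changed sign. For Ecrg4(71-132) against Fc, quantile normalization gave -0.018 for Tgfbr1 and -0.0095 for Smad4. For both fragments it gave -0.035 for Smad4, median scaling gave 0.063 for Tgfbr1 and 0.0060 for Smad7, and the mean of the probes gave 0.011 for Tgfbr1. With single arrays left out, which unbalances the sets, Ecrg4(71-132) against Fc ran over -0.021 to 0.72 for Tgfb1, -0.57 to 0.61 for Tgfbr1, -1.51 to 0.11 for Tgfbr2, -0.14 to 0.71 for Smad2, -2.23 to 1.62 for Smad3, -0.089 to 0.15 for Smad4 and -0.16 to 0.33 for Smad7. With the replicate block as well, which takes out the set difference, these were 0.14 to 0.56 for Tgfb1, -0.14 to 0.18 for Tgfbr1, -0.92 to -0.48 for Tgfbr2, 0.11 to 0.46 for Smad2, -0.65 to 0.037 for Smad3, -0.031 to 0.092 for Smad4 and -0.42 to 0.59 for Smad7. Both fragments against both controls ran over -0.32 to 0.26 for Tgfbr1, -1.22 to 0.71 for Smad3, -0.040 to 0.079 for Smad4 and -0.26 to 0.083 for Smad7. Between the fragments, in fits chosen after seeing the data, Tgfbr2 ran over -0.26 to 1.18 and Tgif1 over -0.87 to 0.050, or, with the block, 0.24 to 0.68 and -0.63 to -0.19.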
